A study of Mus musculus with 8 samples.

Results

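The genes described here encode the proteins of the cytosolic ribosome. A gene was taken when a probe set of the array, the group of probes summarised to 1 level, was annotated with exactly 1 gene symbol and that symbol had the form of a ribosomal protein name (Rpl or Rps followed by a digit, or Rplp0, Rplp1, Rplp2 or Rpsa). Pseudogene symbols ending in -ps and the Rps6k kinases were left out, and the brightest probe set stood for each gene. The rule found 64 genes, on 104 probe sets, of 22180 genes with a probe set of their own. Of these, 60 passed the filter on low levels, which kept 13308 genes in all, and Rps15, Rpl10l, Rpl3l and Rpl32l did not. The rule used no measured difference between genotypes. Of the 80 genes of the standard mouse list (47 of the large, 60S subunit and 33 of the small, 40S subunit), 57 were members. Another 11, among them Rpl10, Rpl13a, Rpl23 and Rps2, were named only on probe sets that carried several symbols, and 10, among them Rpl36a and Rack1, were not on a probe set with a name here. Fau and Rps3a1 had probe sets of their own but symbols outside the rule.

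The study asked what the kinase Irak1, which relays signals of Toll-like and interleukin-1 family receptors, does in CD4+ T cells in a transfer model of colitis. Naive CD4+CD62L+ T cells of C57BL/6 wt mice carrying the CD45.1 form of the surface protein CD45, and of Irak1-/- mice carrying CD45.2, were injected together and in equal numbers into the peritoneum of Rag1-/- mice, which make no T or B cells of their own but keep their myeloid and innate lymphoid cells. After 14 days, CD3+ CD4+ cells with either CD45 form were taken from mesenteric lymph nodes (MLNs) by flow sorting at a stated purity above 99.5%, and their RNA was hybridised to Affymetrix arrays. There were 4 arrays per genotype, from 4 experiments (batches) that each pooled 2 recipient mice. The 2 arrays of a batch therefore hold cells from the same recipients and are called a pair here. No array of untransferred or resting cells was used, so both groups are activated, transferred cells. Genotype went with the CD45 allele in every pair, so an effect of Irak1 and one of DNA beside the CD45 gene cannot be told apart.

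A mammalian ribosome joins a small subunit, which reads the mRNA, to a large subunit, which forms the peptide bonds, and each ribosomal protein is present in a single copy, apart from the stalk proteins. T cells make ribosomes fast when they leave the naive state, and MYC and mTORC1 are the best known drivers. The mRNAs of ribosomal proteins carry a terminal oligopyrimidine (TOP) tract, a C followed by an unbroken run of pyrimidines at the 5′ end, through which LARP1 and mTORC1 set their translation. An array measures the amount of mRNA, not how much of it is being translated.

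The starts of these genes are shown first, because the TOP tract is the feature the family shares that the choice by name did not use. RefSeq promoter sequences (GRCm38.p6) covered 58 annotated starts of 49 members, among 32851 starts of all genes. A C at the first transcribed base followed by at least 4 pyrimidines stood at 11 of the 58 starts (19.0%), against 2.5% of all starts and 2.21% of the starts of protein-coding genes. With at least 6 pyrimidines after the C, 9 starts remained (15.5%, against 1.08% of all starts). The 8 of these that belong to tested genes follow, each with 10 bases before the annotated start and 20 from it on, on the coding strand. Capitals mark the C and the pyrimidine run.
Rpl15: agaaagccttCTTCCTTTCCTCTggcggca
Rpl35: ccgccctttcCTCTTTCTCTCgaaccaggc
Rps10: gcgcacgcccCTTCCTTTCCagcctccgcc
Rps18: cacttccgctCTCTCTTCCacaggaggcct
Rps6: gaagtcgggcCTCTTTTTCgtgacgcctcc
Rpl28: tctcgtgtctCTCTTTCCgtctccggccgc
Rpl38: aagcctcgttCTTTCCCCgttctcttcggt
Rps27: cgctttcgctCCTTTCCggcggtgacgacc
These windows lie at chr14:18270967-18270996 on the minus strand for Rpl15, chr2:39005112-39005141 minus for Rpl35, chr17:27635225-27635254 minus for Rps10 and chr17:33955646-33955675 minus for Rps18. The window of Rps6 is chr4:86857348-86857377 minus, that of Rpl28 is chr7:4792955-4792984 plus, that of Rpl38 is chr11:114668570-114668599 plus and that of Rps27 is chr3:90213629-90213658 minus. In each the tract begins the first exon, at the 5′ end of the untranslated leader. The tract was looked for at the annotated first base only, so a start annotated a few bases away from the one used in the cell is not counted.

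In the 300 bases around each start (250 before, 50 after), searched on both strands, CCGGAAG, the core that ETS factors such as GABP bind, was present at 22 of 58 member starts (37.9%), against 8.86% of all starts and 11.6% of protein-coding ones. The SP1 core GGGCGG was present at 28 (48.3%, against 35.7% and 46.2%) and the YY1 core AAGATGG at 6 (10.3%, against 6.34% and 6.24%). The E-box CACGTG, to which MYC binds, was present at 6 (10.3%, against 7.15% and 7.84%), and TATAAA at 5 (8.62%, against 13.6% and 12.6%). These are matches of letters in a window, and several of them can lie in the same promoter.

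The arrays gave log2 levels with medians between 4.25 and 4.31. The probe set of Irak1 itself read 7.16, 6.89, 6.64 and 6.39 in the wt arrays of replicates 1 to 4, and 6.93, 6.83, 6.997 and 6.61 in the Irak1-/- arrays. The groups overlapped, and since no source used here says which part of the gene was deleted, this level does not check the genotype. Markers of CD4 T cells were bright on every array: the 11 tested read between 8.16 and 11.3 on average, among them Cd3d, Cd3e and Cd4, and B cell markers lay between 3.90 and 4.99. Markers of myeloid cells differed between the groups: 20 of 22 tested were above 0 in the fitted difference and 4 passed the test. Over all tested genes 41.9% lay above 0 and 0.0751% passed. Among the 4, Lyz2 had a log2 level of 3.84 in wt and 8.0 in Irak1-/- arrays. Its wt level was under the filter level of 3.90, so it was tested only through its Irak1-/- levels. The mean level of the myeloid markers ran from 4.97 to 5.21 in wt and from 5.85 to 6.40 in Irak1-/- arrays, without overlap. Markers of NK cells, innate lymphoid cells and CD8 T cells had differences mostly of the other sign: the 10 tested had a median difference of -0.28, 5 were lower at an unadjusted p under 0.05 and 0 were called, and their mean level ran from 5.98 to 6.09 in wt and from 5.57 to 5.89 in Irak1-/- arrays, also without overlap. Over all tested genes 3.82% were lower at an unadjusted p under 0.05. The part of either marker list in the results on ribosomal protein genes was not tested. A fit with the mean myeloid level as a term is given below. Because that level separates the genotypes, the fit cannot tell genotype and marker level apart. The Irak1-/- array of replicate 3 stood apart: its correlation with the others over all tested genes was between 0.957 and 0.970, against 0.976 to 0.986 among the other 7. Counts and medians of the family are therefore also given without that pair, as are the differences of some single genes.

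None of the 60 ribosomal protein genes passed the test for a difference between genotypes. Their fitted log2 differences, Irak1-/- minus wt within pairs, had a median of 0.01 and ran from -0.32 for Rpl9 to 0.69 for Rps4l; 34 lay above 0 and 26 below. At a limma adjusted p under 0.05, 0 of 60 passed, against 10 of 13308 genes (0.0751%), of which 9 were higher (0.0676%) and 1 lower (0.00751%). At an unadjusted p under 0.05, 1 member passed (Rps4l, higher, which entered the test only through its Irak1-/- levels), against 892 of all genes (6.7%), with 2.88% higher and 3.82% lower. The lowest limma adjusted p among members was 0.423. Over all tested genes the median difference was -0.03, and 41.9% of genes lay above 0. In sorted bulk cells, fewer cells of one kind and less RNA per cell cannot be told apart. The replicates are pools of recipients, so p-values measure the spread between 4 such pools.

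Most of the differences were small. For 55 of 60 members (91.7%) the fitted log2 difference lay within -0.2 and 0.2, against 80.9% of all genes. Members are brighter than most genes. At a mean level of 10 or more the share was 100% of members and 93.1% of all genes. Under a mean level of 10 it was 82.1% of members and 80.6% of all genes. The 95% confidence interval lay within -0.5 and 0.5 for 46 of 60 (76.7%), against 77.5% of all genes, and within -1 and 1 for 59 of 60, against 98.9%. Among the 32 members whose probe sets had a mean level of 10 or more, differences ran from -0.14 (Rpl32) to 0.19 (Rps13). Of their intervals, 31 of 32 lay within -0.5 and 0.5 (96.9%, against 90% of all genes that bright). The 28 dimmer members ran from -0.32 to 0.69. Of their intervals, 15 of 28 lay inside those bounds (53.6%, against 77.3% of all genes with a mean level under 10). Higher in Irak1-/- in all 4 pairs were 3 members, Rpl11, Rps18 (named after its values were seen) and Rps4l, against 5.26% of all genes, and lower in all 4 pairs were 0, against 8.91%. In no member did the 4 Irak1-/- levels lie wholly above or wholly below the 4 wt levels, against 1.17% of all genes above and 1.86% below.

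**Figure D1:**
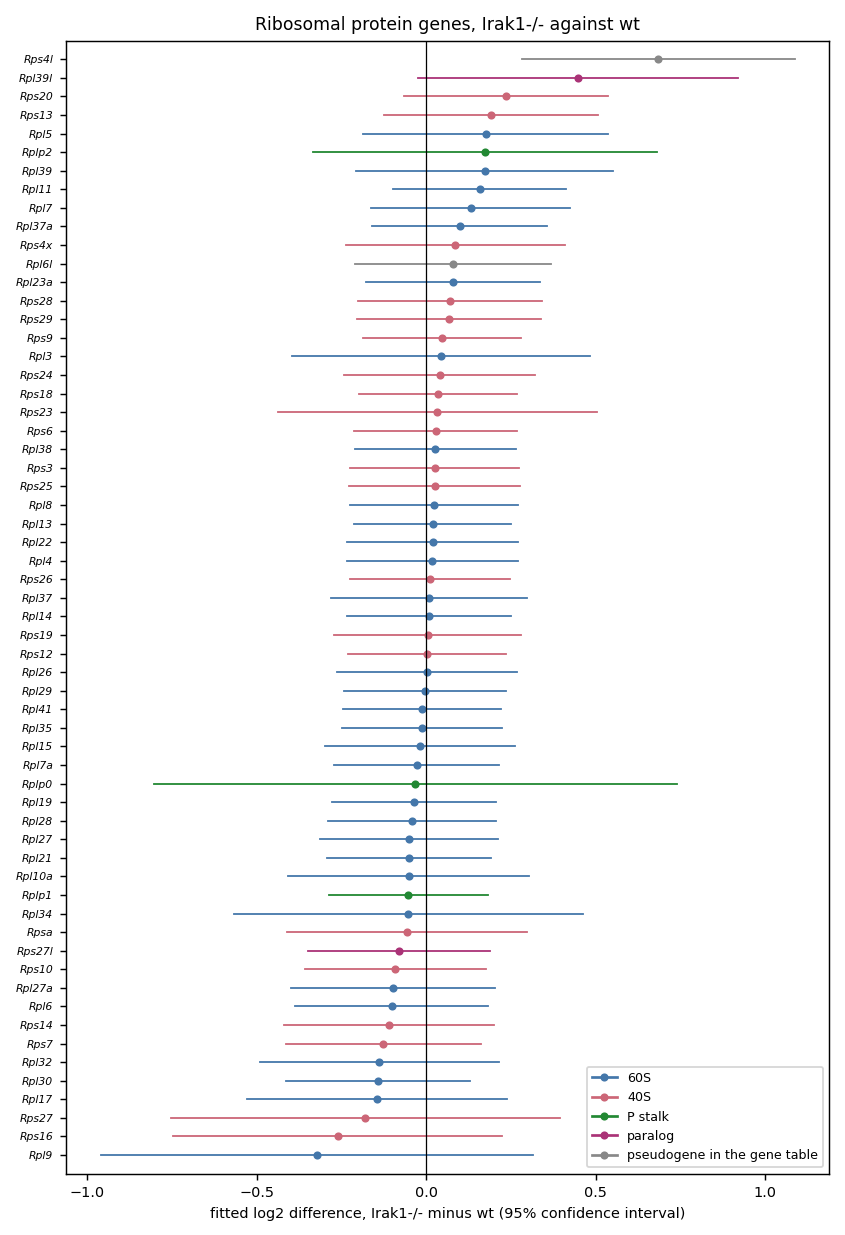
Fitted log2 difference of each of the 60 tested ribosomal protein genes (x axis, Irak1-/- minus wt within pairs, with its 95% confidence interval; 4 pairs), in order of the difference and coloured by subunit or kind. The points lie within -0.2 and 0.2 for 55 of 60 genes, and Rps4l, at 0.69 and with a wt level under the filter, has the one interval that does not reach 0.

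Large subunit proteins had a median difference of -0.01, with 15 of 32 above 0. Rpl38, which helps ribosomes select some developmental mRNAs, read 11.76, 11.83, 11.90 and 11.98 in the wt arrays of replicates 1 to 4 and 11.85, 11.92, 11.91 and 11.89 in the Irak1-/- arrays. All 8 levels fell within a narrow band and the groups overlapped (difference 0.03, 95% interval -0.21 to 0.26). Rpl13 was as even, at 12.26, 12.25, 12.28 and 12.29 in wt and 12.28, 12.28, 12.31 and 12.29 in Irak1-/- arrays (difference 0.02, interval -0.21 to 0.25); it was named after its values were seen.

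Rpl5 and Rpl11 form, with the small 5S rRNA, the particle that binds Mdm2 and so stabilises p53 when ribosome assembly fails. Rpl11 read 5.35, 5.50, 5.30 and 5.32 in wt arrays and 5.35, 5.59, 5.45 and 5.69 in Irak1-/- arrays. Each Irak1-/- array was above its partner, in pair 1 by only 0.0034, while the groups overlapped (difference 0.16, SE 0.112, limma adjusted p = 0.885). Rpl5 differed by 0.18 (SE 0.159), with 2 pairs higher and 2 lower. Rpl3, which lines the centre where peptide bonds form, differed by 0.04 (SE 0.193), and Rpl22, which T cells need early in their development, by 0.02 (SE 0.111). Rpl39, of the tunnel through which the new protein leaves, differed by 0.17 (SE 0.167). Without replicate 3 these differences were 0.0054 for Rpl5, 0.31 for Rpl3 and 0.34 for Rpl39, none of them called. The Rpl39 set was dim, at a mean level of 5.12. A somewhat brighter Rpl39 set with several symbols, at 5.67, gave -0.05 with all pairs in the fit.

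Rpl9, which lies near the site where translation factors dock, had the lowest fitted difference. Its levels were 8.69, 8.55, 8.61 and 9.11 in the wt arrays and 8.70, 9.16, 7.11 and 8.69 in the Irak1-/- arrays. The Irak1-/- array of replicate 3 was far below the other 7, which overlapped between groups. The difference was -0.32 (SE 0.281, limma adjusted p = 0.909), and without replicate 3 it was 0.07. A second Rpl9 probe set gave 0.04. Rpl17, Rpl30 and Rpl32, the other large subunit genes among the 6 lowest, each differed by -0.14, with intervals from -0.53 to 0.24, from -0.41 to 0.13 and from -0.49 to 0.22. Without replicate 3 they were 0.0046, -0.23 and 0.06. A brighter Rpl30 set with several symbols, at a mean level of 12.0, gave -0.0040.

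The stalk proteins Rplp0, Rplp1 and Rplp2 form the arm of the large subunit that recruits elongation factors, and Rplp0 is widely used as a reference gene. Rplp0 read 8.22, 8.52, 8.60 and 7.69 in the wt arrays and 8.73, 8.63, 6.98 and 8.57 in the Irak1-/- arrays. It was higher in Irak1-/- in 3 pairs and differed by -1.62 in pair 3, and its fitted difference was -0.03 with the widest interval of all members, from -0.80 to 0.74. Without replicate 3 the difference was 0.50 (SE 0.160, limma adjusted p = 0.636). A second Rplp0 probe set, at a mean level of 7.60 against 8.24, gave 0.18 (SE 0.230). Its pairs differed by -0.34, 0.35, 0.90 and -0.21, so the fall in pair 3 was not shared by both sets. Rplp1 was even on all arrays, between 12.7 and 12.8 (difference -0.05, SE 0.103). Rplp2 was higher in pairs 1 and 2, by 0.58 and 0.80, and differed by -0.72 in pair 3 (difference 0.17, SE 0.224). Without replicate 3 it differed by 0.47 (SE 0.161, limma adjusted p = 0.642).

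Small subunit proteins had a median difference of 0.03, with 15 of 21 above 0, none of them called. Rps6, the classic substrate of the S6 kinases downstream of mTORC1, read 11.60, 11.69, 11.72 and 11.71 in the wt arrays and 11.74, 11.72, 11.63 and 11.75 in the Irak1-/- arrays. The levels overlapped and the difference was 0.03 (interval -0.21 to 0.27). Rps3, at the mRNA entry of the small subunit, differed by 0.03 (SE 0.110), Rps25, known from translation at viral internal ribosome entry sites, by 0.02 (SE 0.111), and Rps19, the gene most often mutated in Diamond-Blackfan anaemia, by 0.0042 (SE 0.122). Rps14, whose loss underlies the anaemia of a deletion of human chromosome arm 5q, differed by -0.11 (SE 0.136).

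Rps20 and Rps13 had the largest positive differences among small subunit genes. Rps20 read 6.09, 6.34, 6.67 and 6.48 in wt arrays and 6.61, 6.68, 6.52 and 6.70 in Irak1-/- arrays, 0.24 apart in the fit (SE 0.132, limma adjusted p = 0.820). The wt array of replicate 3 reached into the range of the Irak1-/- arrays, and pair 3 went the other way. Rps13 differed by 0.19 (SE 0.139), with pair 4 lower. At the other end were Rps16, at -0.26 (SE 0.213), and Rps27, at -0.18 (SE 0.253). The value of Rps16 came from 1 array: the Irak1-/- array of replicate 1 read 3.07, while the other 7 lay between 4.12 and 4.37. That of Rps27 came from the Irak1-/- array of replicate 3, and without that replicate its difference was 0.20 (SE 0.142). Both genes were read by dim sets, at mean levels of 4.09 and 6.26. Brighter sets with several symbols, at 12.2 and 12.4, gave -0.0026 for Rps16 and 0.02 for Rps27. On the brighter Rps27 set, replicate 3 read 12.43 in the wt and 12.40 in the Irak1-/- array. Rps7 differed by -0.13 (SE 0.126), and Rpsa, also known as the laminin receptor precursor, by -0.06 (SE 0.155). Rps4x, an X-linked member, differed by 0.09 (SE 0.142), with 3 pairs higher and the Irak1-/- array of replicate 3 at 9.89 against 10.65 to 10.74 on the other Irak1-/- arrays. Without replicate 3 the differences were 0.00088 for Rps7, 0.13 for Rpsa, 0.25 for Rps4x and 0.36 for Rps20, none of them called. Fau, made as a fusion of a ubiquitin-like protein with a 40S protein and outside the rule for members, differed by 0.05 (SE 0.109).

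The largest difference was that of Rps4l, an Rps4x-like sequence that the RefSeq gene table classes as a transcribed pseudogene. It read 3.80, 3.96, 3.92 and 3.65 in the wt arrays and 3.82, 5.18, 4.66 and 4.42 in the Irak1-/- arrays. The Irak1-/- arrays of replicates 2, 3 and 4 lay above all wt arrays, and that of replicate 1 lay among them. The log2 difference was 0.69 (SE 0.177, 95% interval 0.28 to 1.09) and the limma p was 0.00404 before and 0.423 after adjustment over all tested genes. The wt mean of 3.83 was under the filter level of 3.90 and the Irak1-/- mean was 4.52, so Rps4l entered the test through the group in which it was higher, and its difference and p support nothing about the family. Rps4x, its close relative, differed by 0.09, and probes of near copies can read each other's transcripts. With the mean myeloid marker level of each array as a further term, the difference of Rps4l was -0.90 (SE 0.767); that marker level separates the genotypes, so genotype and marker level cannot be told apart here.

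Members that encode paralogs, variants of a ribosomal protein from a second gene, did not share a direction. Rpl39l, a testis-enriched relative of Rpl39, read 4.30, 5.74, 5.53 and 5.55 in the wt arrays and 5.62, 5.62, 5.88 and 5.81 in the Irak1-/- arrays. The low wt array of replicate 1 stood apart from the other 7, which overlapped. The difference was 0.45 (SE 0.208, limma adjusted p = 0.778) and 0.16 without replicate 1. Rps27l, a p53 target and relative of Rps27, differed by -0.08 (SE 0.118), and the pseudogene-like Rpl6l by 0.08 (SE 0.127). Of 2 paralogs outside the rule, Rpl22l1 differed by -0.05 (SE 0.113) and Rpl7l1 by 0.14 (SE 0.116). The paralogs Rpl3l and Rpl10l, known from muscle and testis, were too dim to test: no array read above 3.59 for the first or 2.23 for the second. Rpl32l reached 2.28, and Rps15 ranged from 2.73 to 4.86 with its lowest and highest levels both in wt arrays.

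**Figure D2:**
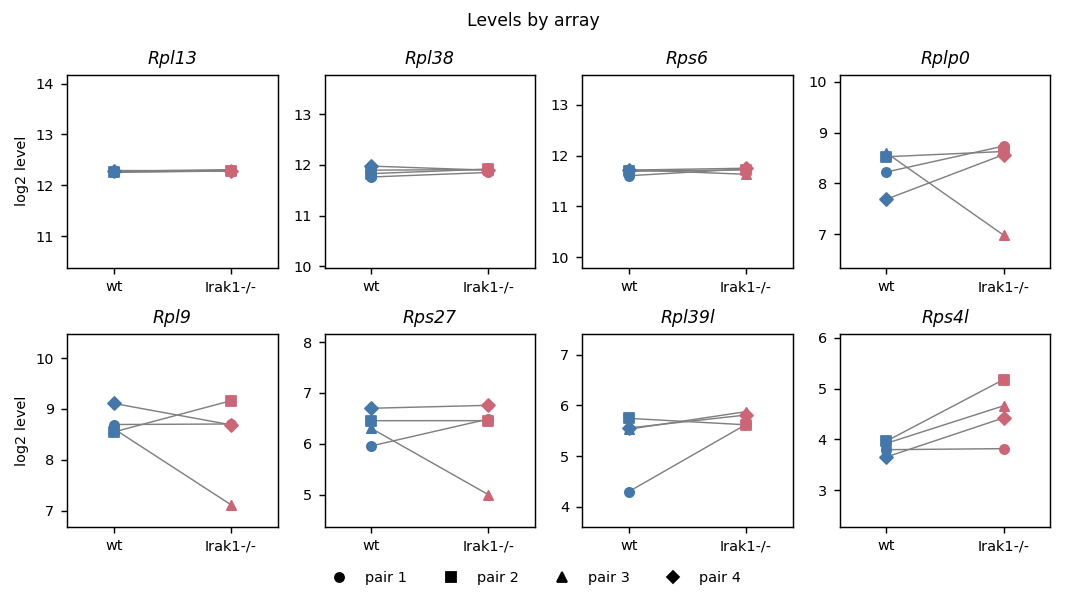
Log2 level (y axis, each panel spanning 3.8 units around the gene's mean) of 8 ribosomal protein genes in the wt and Irak1-/- array of each pair, with a line joining the arrays of a pair. Rpl13, Rpl38 and Rps6 are flat; for Rplp0, Rpl9 and Rps27 the Irak1-/- array of replicate 3 lies below the other 7; for Rpl39l the low array is the wt one of replicate 1; and for Rps4l 3 of 4 pairs differ by 0.74 to 1.21.

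The differences of the family varied from pair to pair. The median difference of the 60 genes was 0.07 in pair 1, 0.07 in pair 2, -0.15 in pair 3 and 0.02 in pair 4, and those of all tested genes were -0.0037, -0.04, -0.06 and 0.0021. In pair 3, 45 of 60 members (75%) were lower in Irak1-/-, against 57.4% of all genes, while in pairs 1, 2 and 4 the counts were 14, 13 and 22 of 60, against 50.5%, 57.3% and 49.7% of all genes. Bright genes also had low shares in pairs 1 and 2. Of all 261 genes with a mean level of 10 or more, members included, 29.5%, 33% and 51.3% were below 0 in pairs 1, 2 and 4. For the 32 members that bright the shares were 15.6%, 15.6% and 43.8%. The 40S genes gave 17 of 21 below 0 in pair 3 and 2 of 21 in pair 2. The 60S genes gave 23 of 32 and 8 of 32.

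Below -0.5 in pair 3 were 12 members (20%), against 10.2% of all genes, and in pairs 1, 2 and 4 there were 1, 0 and 0, against 4.95%, 3.57% and 3.98%. Above 0.5 were 6, 3, 2 and 3 members in pairs 1 to 4, against 3.49%, 3.28%, 6.8% and 4.5% of all genes. The 12 members below -0.5 in pair 3 were led by Rplp0 (-1.62), Rpl9 (-1.50) and Rps27 (-1.31), a zinc-finger protein of the small subunit whose levels were 5.96, 6.45, 6.30 and 6.70 in wt and 6.49, 6.46, 4.997 and 6.76 in Irak1-/- arrays. Rpl34 (-0.99) and Rps23 (-0.88) followed, both named after their values were seen, then Rpl3 (-0.77), Rplp2 (-0.72), Rpl32 (-0.72) and Rpsa (-0.62). In pair 3 the other 1-symbol sets gave 0.90 for Rplp0, -0.18 for Rpl9, -0.46 and 0.45 for Rpl3, and 0.29 for Rpsa. Brighter sets with several symbols were also at hand for Rps27, Rpl34 and Rplp2. In the wt and Irak1-/- arrays of replicate 3 these read 12.43 and 12.40 for Rps27, and 12.28 and 12.08 for Rpl34. The Rplp2 set, shared with Snora52, read 9.26 and 9.75. The Irak1-/- array of replicate 3 held the lowest of the 8 levels for 33 of 60 members (55%), against 29.3% of all genes, and the highest for 7 (11.7%, against 15.8%). Of the 229 other genes with a mean level of 10 or more, that array was the lowest for 119 (52.0%), and 158 (69%) were below 0 in pair 3; of the 32 members that bright, it was the lowest for 19 (59.4%), and 26 (81.2%) were below 0. Without replicate 3 the median member difference was 0.06, and 0 members passed after adjustment. At an unadjusted limma p under 0.05, 6 of 60 passed, all higher in Irak1-/-, against 6.75% of all genes in either direction. With all 4 pairs, 2.88% of all genes were higher at that limit. The share of all genes higher without replicate 3 was not computed.

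**Figure D3:**
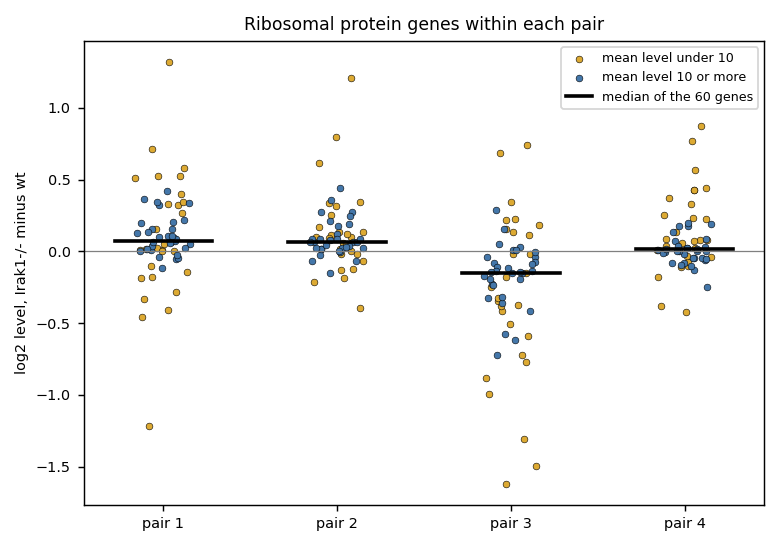
Log2 difference (y axis, Irak1-/- minus wt) of each of the 60 tested ribosomal protein genes within each of the 4 pairs (x axis); points are genes, coloured by whether the mean level of the probe set is 10 or more, and bars are medians over the 60 genes. Pair 3 has its bar at -0.15 and a tail of 12 genes below -0.5, and the other bars lie between 0.02 and 0.07.

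Across the 8 arrays the members varied in common. The median correlation between any 2 of the 60 was 0.32, and 0.50 among the 32 with a mean level of 10 or more; among 1331 tested genes taken at even steps through the alphabetical list it was 0.01. Without the Irak1-/- array of replicate 3 the values were 0.17 for all members and 0.29 for the brighter ones. These describe 8 arrays of 4 pairs, and members share the array's scale and the sample's RNA. The genes set beside them were not matched for level, and the correlation among other bright genes was not computed. Whether the common variation is particular to the family was therefore not tested.

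How a gene was read depended on the probe set. Of the 64 members, 24 had more than 1 probe set, 23 of them with differing values. The levels of the brightest and dimmest set of a gene differed by over 2 log2 units in 17 of 23, and by 8.38 for Rpl35. The genotype differences of a gene's sets had opposite signs in 13 of 23, with a median gap of 0.14 and a largest gap of 0.37, for Rpl9. Several well known genes were represented by dim sets, since their bright sets also name pseudogenes: for Rpl30 the set of its own had a mean level of 4.78 and a shared one 12.0, and for Rpl34 these were 5.93 and 12.2. Processed copies of ribosomal protein genes are many in mammalian genomes, and the annotation here cannot say which copy a probe reads.

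The probe sets with several symbols were therefore fitted as well, taking the brightest for each gene, which brought the count to 71 genes. None was called, and 3 had an unadjusted p under 0.05: Rps4l and 2 others named after their values were seen. Rps2, of the mRNA entry site, read 6.90, 7.08, 7.60 and 6.99 in wt and 7.24, 7.36, 8.38 and 7.51 in Irak1-/- arrays, higher in each pair but with overlapping groups, a difference of 0.48 (SE 0.121, limma adjusted p = 0.400). Rpl5, read by a set shared with a pseudogene, differed by 0.53 (SE 0.143, limma adjusted p = 0.450), against 0.18 by the set of its own. Both sets were highest on the Irak1-/- array of replicate 3, the array on which most members were lowest. A dimmer Rps2 set, at a mean level of 4.98, gave -0.09. Of the genes of the panel measurable only on sets with several symbols, Rpl10 differed by 0.14 (SE 0.120) and Rpl23 by 0.02 (SE 0.122). Rpl13a, on a set shared with the small nucleolar RNA gene Snord32a, differed by 0.41 (SE 0.194). Of its dimmer sets, that shared with Flt3l gave -0.20, and those shared with Snord33 and Snord34 gave 0.32 and 0.64.

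Small nucleolar RNAs (snoRNAs), which guide the chemical modification of rRNA, are often processed from introns of ribosomal protein genes. The gene table placed 43 snoRNA genes inside 21 members; it gives no strand, so strand was not used. A probe set of their own was found for 12, inside 11 members, and all 12 were tested. The set was looked at after results of these data were known, and the genes were not in the list of named genes. Their fitted differences were all above 0, from 0.07 (Snord16a in Rpl4) to 1.26 (Snord15a in Rps3), with a median of 0.31. None passed after adjustment, the lowest limma adjusted p being 0.401, and 5 had an unadjusted p under 0.05. Over all tested genes, 41.9% lay above 0, 6.7% had an unadjusted p under 0.05 and 0.0751% passed after adjustment. Their 11 host genes had a median of 0.01, with 7 above and 4 below 0.

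Snora7a, inside Rpl32, read 6.33, 6.14, 6.61 and 6.26 in wt arrays and 6.95, 6.58, 7.47 and 6.48 in Irak1-/- arrays. Each Irak1-/- array was above its partner, and the groups overlapped (difference 0.54, SE 0.129), while Rpl32 itself differed by -0.14. Snora69, inside Rpl39, differed by 0.83 (SE 0.217), and Snora62, inside Rpsa, by 0.46 (SE 0.125), each higher in 4 of 4 pairs. Snord15a read over 2 log2 units higher in pairs 3 and 4 (2.90 and 2.30) and lower in pair 2. The pair medians of the 12 were 0.12, 0.30, 0.73 and 0.22, and the Irak1-/- array of replicate 3 held the highest level for 10 of 12. Beside them, 55 snoRNA genes elsewhere in the genome had a median of 0.17, with 45 above 0, 14 at an unadjusted p under 0.05 and 0 called, and that array was the highest for 36. The difference between the 2 sets was not tested. Without replicate 3, 11 of 12 remained above 0 with a median of 0.22. With the myeloid marker level as a term, 5 of 12 lay above 0, with a median of -0.07. That marker level separates the genotypes, so genotype and marker level cannot be told apart in that fit.

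**Figure D4:**
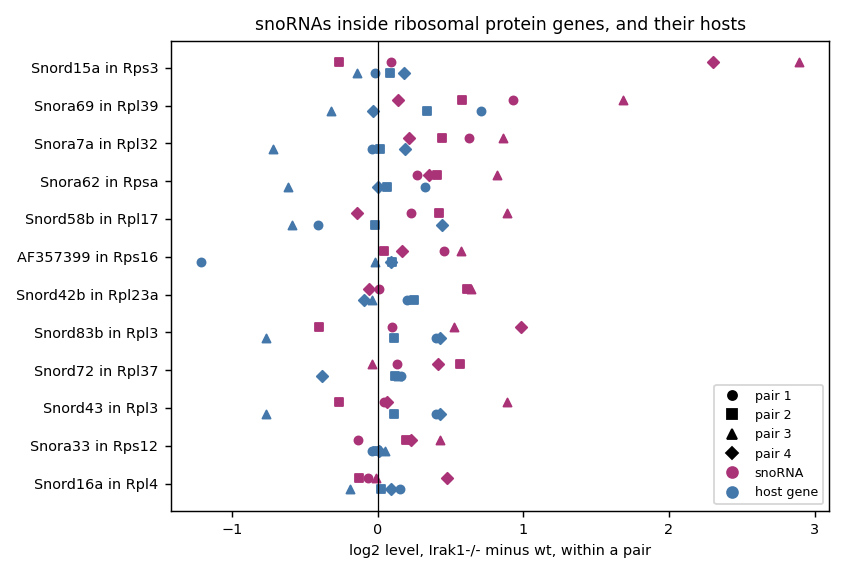
Log2 difference (x axis, Irak1-/- minus wt within a pair; the marker shape gives the pair) of 12 snoRNAs that lie inside ribosomal protein genes and of their host genes (y axis, ordered by the fitted difference of the snoRNA). In pair 3 the median is 0.73 for the snoRNAs and -0.19 for the 11 hosts.

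Genes that make or control ribosomes gave no calls either. Of 49 tested biogenesis factors, 28 were above 0, with a median of 0.02; Nip7, of the late large subunit, differed by 0.30 (SE 0.108, higher in 4 of 4 pairs, limma adjusted p = 0.642), and Rrp12, an export factor, by -0.27 (SE 0.129, lower in 4 of 4). The 17 tested genes of a list of other TOP mRNAs and their like, most of them translation factors, had a median of 0.02, with 10 above 0 and 0 at an unadjusted p under 0.05. Eif3e, a subunit of initiation factor eIF3, had the smallest p, with a difference of 0.25 (SE 0.123). Of 15 genes of the mTORC1 and MYC arm, 8 were above 0 with a median of 0.01; Mtor itself differed by -0.18 (SE 0.111) and was lower in 4 of 4 pairs, as was Mxd4, a MAX partner opposing MYC, at -0.17 (SE 0.106). Of 8 genes of the p53 response, to which ribosomal stress leads, 4 were above 0, and Sesn1 had the smallest p, with a difference of 0.38 (SE 0.133, limma adjusted p = 0.607). Shares at an unadjusted p under 0.05 were 1 of 49, 0 of 17, 0 of 15 and 1 of 8, against 6.7% of all genes.

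The mitochondrial ribosome, built from other genes, served as a comparison. All 71 of its listed proteins were tested, 28 above 0 with a median of -0.03, and 0 were called. Mrps36, since assigned to the oxoglutarate dehydrogenase complex rather than the ribosome, had the lowest p: it read 3.99, 3.39, 4.00 and 3.16 in wt arrays and 4.66, 3.97, 4.57 and 4.22 in Irak1-/- arrays, higher in each pair though the groups overlapped slightly (difference 0.72, SE 0.122, limma adjusted p = 0.125). Its wt mean of 3.64 was under the filter level of 3.90, so it too was tested only through its Irak1-/- levels. Mrps7 differed by -0.29 (SE 0.112, lower in 4 of 4 pairs). The Irak1-/- array of replicate 3 was the lowest for 28 of 71 of these genes, for 25 of 36 genes with proteasome subunit symbols, 11 of 17 TOP and translation genes and 23 of 26 cell cycle genes, beside 33 of 60 cytosolic members. The part of cell cycle activity in the pair 3 pattern was not tested.

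Members lay on 19 chromosomes, with Rpl39 and Rps4x on the X chromosome, where Irak1 lies. None lay within 10 Mb of Irak1 or of Ptprc, the CD45 gene, nor within 20 Mb. Of the genes read only by shared probe sets, Rpl10 lay within 5 Mb of Irak1.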

How the data were processed

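The deposited values are log2 levels per probe set of 8 arrays; how the authors normalised them, and with which software and array version, is not stated in the sources used here. Per the labels, RNA came from a TRIzol extraction and the arrays were run with biotin label by Affymetrix's own protocol. The value table held 41345 probe sets, of which the platform annotation gave 1 symbol to 23521, several to 1814 and none to 16010. Symbols were updated through the gene identifier. The probe set with the highest mean stood for a gene, and genes under the 40th percentile of mean level (3.90) were left out. The genotype term was fitted by limma 3.58.1 (lmFit, eBayes; R 4.3.3) with the pair as a block, and p-values were adjusted over 13308 genes by Benjamini-Hochberg. The pairing comes from the batch label and the shared recipients; the deviations of paired arrays from their group means correlated at 0.18, 0.14, 0.20 and 0.08. No 2 arrays shared more than 0.237% of values. The code was tested on simulated data. Genes were named by rule: members called, the 6 largest differences in each direction, the 4 smallest p in each direction, a panel of known genes, and up to 3 of each other list by p. The members, the gene lists and the alternatives (other blocks, normalisations, filters, probe set rules, left-out pairs, a myeloid term) were chosen with earlier results of these data known. The number of arrays limits the precision.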

Additional observations from a re-analysis of the deposited data

Results flagged for a closer look

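Among 84 groups of 4 arrays, for the 42 genes examined, 5 held an array far from the other 3 by Dixon's criterion, which chance meets in about 1 of 20 groups. Of these, 3 were the Irak1-/- array of replicate 3: Rpl32 read 11.003 there and 11.69 to 11.81 on the other Irak1-/- arrays, Rplp0 read 6.98 against 8.57 to 8.73, and Rps4x read 9.885 against 10.65 to 10.74. Rpl39l read 4.302 on the wt array of replicate 1 against 5.53 to 5.74 on the other wt arrays. Rps16 read 3.074 on the Irak1-/- array of replicate 1 against 4.198 to 4.37 on the others.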

How the results depend on the processing

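No ribosomal protein gene was called under any of the alternatives tried, whose median member difference ran from -0.02 to 0.07 apart from the myeloid term. Leaving out each replicate gave medians from -0.02 to 0.06, and 7 to 17 genes called of all tested, against 10. Over all genes, 16 were called with the pair as a random block, 16 with median centring and 16 with eBayes trend and robust settings. With the mean myeloid marker level as a term 0 were called, and the member median was 0.24 and the snoRNA median -0.0714. That marker level separates the genotypes, so genotype and marker level cannot be told apart in that fit. Testing each probe set alone gave 97 member sets. Without the replicate block 11 genes and 0 members were called and the member median was 0.01. Quantile normalization turned the median to -0.01, and median centring made it 0.00013. Single uncalled members changed sign often: 9 under quantile normalization, 7 with the mean of probe sets, 14, 10, 21 and 7 without replicates 1 to 4, and 28 with the myeloid term. The causes were not tested. At the 60th percentile filter, 53 members were tested and 0 had an unadjusted p under 0.05. Of the dimmer members, 13 of 28 had intervals that reach beyond 0.5 in size. Intervals inside 0.5 were found for 53.6% of them, against 77.3% of all genes with a mean level under 10. The cause of the wider intervals was not tested.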
